A study of Ovis aries with 10 samples.

Results

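The genes described here are 9 genes of thyroid hormone control and of tanycytes in the mediobasal hypothalamus of the ewe: the deiodinases DIO2 and DIO3, the thyroid hormone carrier SLCO1C1 and binding protein CRYM, the receptors THRB and TSHR, and the tanycyte genes RAX, VIM and NES. They were taken by symbol from a table of read counts for 33775 genes, and each symbol matched 1 row. RNA sequencing libraries came from 20 adult Ile-de-France ewes, of which 10 were in the follicular phase and 10 in the luteal phase, when progesterone from the corpus luteum is high. For every library, RNA of 2 ewes of a phase was combined in equal amounts at random, giving 5 libraries per phase in which no ewe was used again, and the series title names progesterone as the question. No hormone treatment or ovariectomy is named in the labels for either phase, and season and time of day are not given in the sources used here.

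Thyroid hormone acts in the hypothalamus after local conversion. The enzyme encoded by DIO2 turns thyroxine into the active triiodothyronine, and the enzyme encoded by DIO3 degrades both. Both are made by tanycytes, elongated cells that line the floor of the third ventricle and reach to the median eminence. In seasonal mammals such as sheep, thyrotropin from the neighbouring pars tuberalis of the pituitary reaches TSHR on tanycytes and raises DIO2 through cyclic AMP, which links day length to reproduction.

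Library totals ran from 20644992 to 43193449 reads and averaged 28178600 ± 9130240 in follicular and 37595900 ± 5397190 in luteal libraries (SD, n = 5 each; p = 0.111 in an exact permutation test, two-sided). The share of reads on 20 ribosomal protein genes was 1.60% to 2.70% in follicular and 1.67% to 2.304% in luteal libraries (exact permutation test, p = 0.214, where 0.00794 is the smallest p possible). Genes known from the arcuate nucleus were present: TAC3 was at 201.5 to 315 CPM and POMC, which pituitary cells also express, at 404.6 to 1371 CPM. SIM1, a paraventricular gene, did not exceed 0.131 CPM. CPM is a read count scaled to a common library size, here after TMM scaling. Genes known from pituitary cells were also present, with CGA at 1014 to 2383 CPM and the prolactin gene PRL at 144 to 2721 CPM. Fewer cells of a type and less RNA per cell cannot be told apart in such blocks.

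Of the 9 genes, DIO2 and SLCO1C1 averaged lower in luteal libraries by about the same factor, TSHR and DIO3 averaged higher, VIM averaged slightly higher, and CRYM, THRB, RAX and NES differed less relative to their spread. All 9 passed the filter on low counts, 5 averaged higher and 4 lower in luteal libraries (51.5% of all genes tested averaged higher), and 0 were called by the edgeR quasi-likelihood test after Benjamini-Hochberg adjustment over the 18276 genes tested. Over all genes edgeR called 0, or 0%, and the smallest adjusted p was 0.426. An unadjusted edgeR p under 0.05 was found for 4 of the 9 (DIO2, SLCO1C1, TSHR and VIM) and for 11.4% of all genes tested, with 4.27% higher and 7.12% lower in luteal libraries. DESeq2 called 35 genes, or 0.192%, and limma-voom 0 genes, and by both 0 of the 9 were called. The phases did not overlap for 1 of the 9, VIM, and for 1.12% of all genes tested. Because the genes were chosen with earlier results of these data known, these counts are a description.

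**Figure D1:**
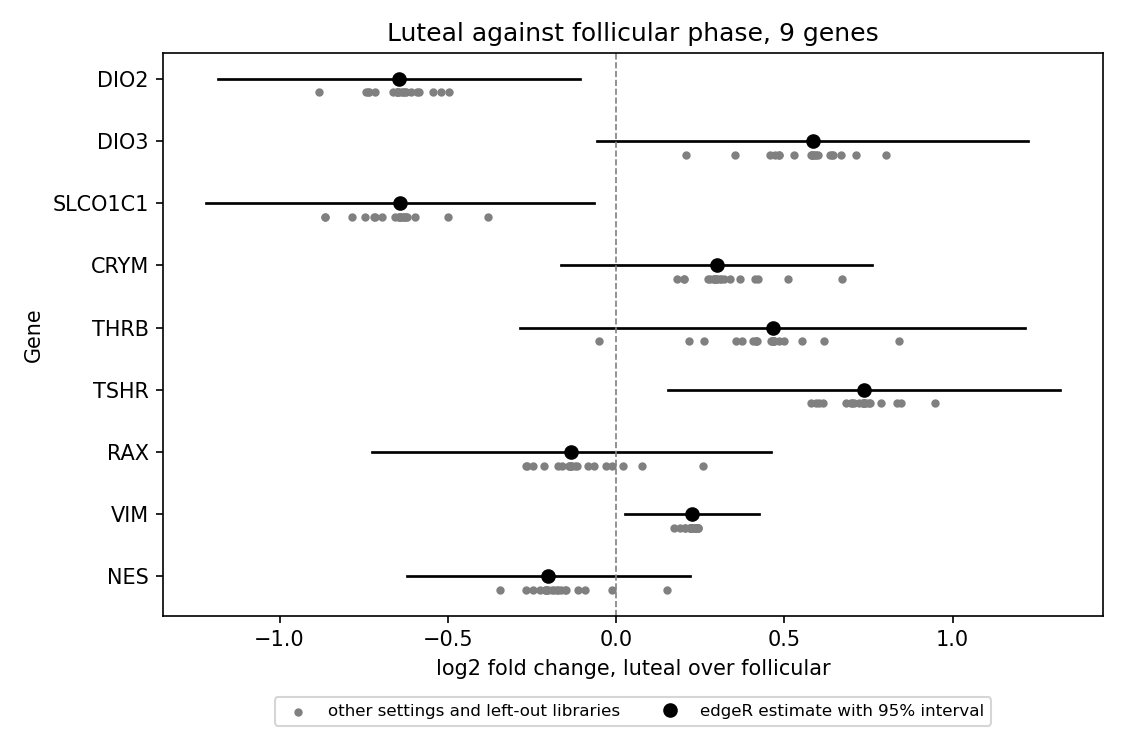
Log2 fold change of luteal over follicular libraries for each gene (horizontal axis), with the edgeR estimate and its 95% interval in black and the values under 20 other settings, left-out libraries included, in grey. The intervals of DIO2, SLCO1C1, TSHR and VIM lie on one side of 0 before adjustment, and the grey values of RAX, NES and THRB fall on both sides.

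DIO2, the activating deiodinase, was at 160.6, 152.0, 140.7, 169.9 and 117.5 CPM in follicular libraries 1 to 5 and at 66.9, 78.7, 55.6, 152.3 and 120.0 CPM in luteal libraries 1 to 5. Luteal 1, 2 and 3 lay below every follicular library, whereas luteal 4 and 5 lay inside the follicular range. The means were 148 ± 20.3 CPM and 94.7 ± 40.4 CPM (SD, n = 5 per phase), which is 1.56-fold lower in luteal libraries (log2 fold change -0.65, SE 0.25, edgeR adjusted p = 0.426, unadjusted p = 0.0225). The spread also differed, with a coefficient of variation of 13.7% in follicular and 42.6% in luteal libraries. Between 1725 and 6228 reads supported each value. Without luteal 4 the log2 fold change was -0.88, and without luteal 3 it was -0.50.

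DIO3, the inactivating deiodinase, was at 1.59, 3.01, 1.17, 1.31 and 2.57 CPM in follicular and at 2.44, 2.25, 3.77, 2.47 and 3.72 CPM in luteal libraries. Follicular 1, 3 and 4 lay below all luteal libraries and follicular 2 and 5 among them. The means were 1.93 ± 0.81 CPM and 2.93 ± 0.75 CPM (SD, n = 5 each; log2 fold change 0.58, SE 0.29, edgeR adjusted p = 0.428). With the leading axis of variation among libraries (the first principal component) in the model the log2 fold change of DIO3 was 0.21, and without follicular 1 and 3 it was 0.35. These values rest on 22 to 158 reads per library. In the RefSeq assembly ARS-UI_Ramb_v3.0 the DIO3 gene model is a single transcript of 837 bases, and which model the authors counted on is not stated in the sources at hand.

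The balance of the pair was taken within each library as the log2 CPM of DIO2 minus that of DIO3, with a prior count of 2. It was 6.61, 5.63, 6.84, 6.95 and 5.48 in follicular and 4.74, 5.09, 3.86, 5.91 and 4.99 in luteal libraries. Luteal 4 was the only luteal library inside the follicular range, above follicular 2 and 5. The means were 6.30 ± 0.69 and 4.92 ± 0.74 (SD, n = 5 per phase), a difference of -1.38 on the log2 scale. In reads, DIO2 exceeded DIO3 by 45.7 to 129.6 times in follicular and by 14.7 to 61.7 times in luteal libraries. The balance is a description with no test, since it joins the values of 2 chosen genes, and it is no ratio of molecules, since transcript lengths were not used.

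**Figure D2:**
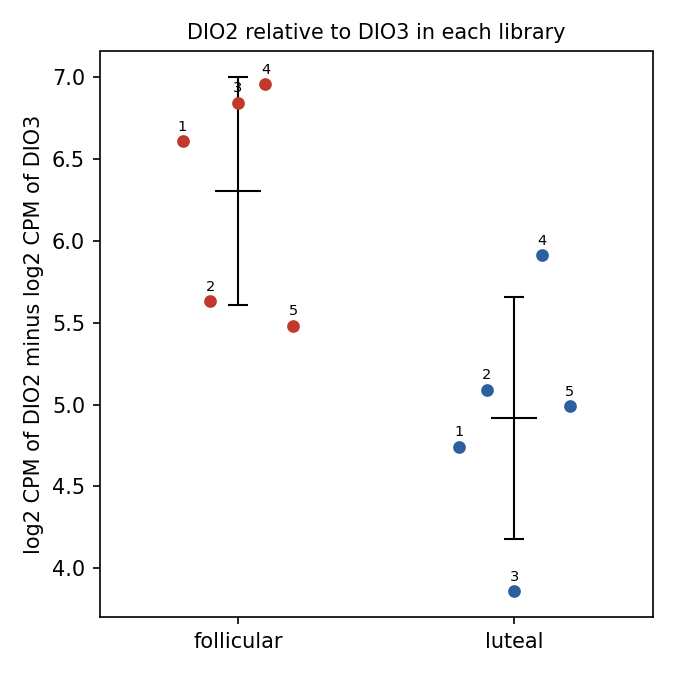
Log2 CPM of DIO2 minus log2 CPM of DIO3 (vertical axis) in each library, numbered by replicate, with mean and SD per phase. Follicular libraries lie between 5.48 and 6.95 and luteal libraries between 3.86 and 5.91, with luteal 4 inside the follicular range.

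SLCO1C1 encodes a transporter with high affinity for thyroxine, found in brain capillaries, astrocytes and tanycytes. It was at 31.4, 46.3, 36.1, 38.8 and 75.8 CPM in follicular and at 27.5, 25.6, 17.5, 35.5 and 40.4 CPM in luteal libraries. Luteal 1, 2 and 3 were again below every follicular library, and follicular 5 stood highest. The means were 45.7 ± 17.7 CPM and 29.3 ± 8.90 CPM (SD, n = 5 each; log2 fold change -0.64, SE 0.26, edgeR adjusted p = 0.426, unadjusted p = 0.0321). Without follicular 5 the log2 fold change was -0.38.

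CRYM encodes mu-crystallin, a cytosolic protein that binds triiodothyronine. It was at 352, 245, 301, 281 and 178 CPM in follicular and at 420.5, 420.9, 275, 337 and 217 CPM in luteal libraries. Luteal 1 and 2 exceeded every follicular library, and the other luteal libraries lay within the follicular range. The means were 272 ± 64.9 CPM and 334 ± 89.6 CPM (SD, n = 5 each; log2 fold change 0.30, SE 0.21, edgeR adjusted p = 0.484). In a model that also held the first principal component, the log2 fold change of CRYM was 0.67 (edgeR adjusted p = 0.239). It was 0.51 without follicular 1 and 3 and 0.18 without follicular 5.

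Of 6 other thyroid hormone and amino acid transporter genes, all tested, 2 averaged higher and 4 lower in luteal libraries, with a median log2 fold change of -0.04 against 0.01 over all genes tested, and 0 were called. SLC3A2, the shared heavy chain of amino acid transporters, averaged 165 CPM in follicular against 144 CPM in luteal ones. TTR, the plasma and cerebrospinal fluid carrier of thyroxine made by choroid plexus, varied from 9.61 to 94.2 CPM. SLCO4A1, an organic anion transporter, averaged 2.96 ± 1.34 CPM in follicular against 2.24 ± 0.973 CPM in luteal ones (log2 fold change -0.41, SE 0.37, edgeR adjusted p = 0.560).

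THRB encodes the thyroid hormone receptor beta, a nuclear receptor. It was at 1.33, 1.72, 1.49, 1.76 and 3.79 CPM in follicular and at 2.12, 2.82, 3.35, 1.56 and 4.33 CPM in luteal libraries, from 26 to 184 reads. Follicular 5 stood apart from the other follicular libraries, and luteal 4 lay among the low ones. The means were 2.02 ± 1.01 CPM and 2.84 ± 1.08 CPM (SD, n = 5 each; log2 fold change 0.47, SE 0.34, edgeR adjusted p = 0.498). Without follicular 5 the log2 fold change was 0.84 (edgeR adjusted p = 0.0805), without luteal 5 it was 0.26, without follicular 1 and 3 it was 0.22, and with the first principal component it was -0.051. THRA, the gene of the alpha receptor, averaged 349 ± 6.13 CPM in follicular against 375 ± 34.9 CPM in luteal ones (log2 fold change 0.11, edgeR adjusted p = 0.535).

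TSHR encodes the thyrotropin receptor. It was at 6.61, 8.51, 6.37, 4.61 and 11.5 CPM in follicular and at 17.8, 13.8, 9.18, 8.58 and 13.6 CPM in luteal libraries. All 5 luteal libraries exceeded the follicular median, and 3 of them exceeded the highest follicular library, follicular 5. The means were 7.52 ± 2.63 CPM and 12.6 ± 3.78 CPM (SD, n = 5 per phase), 1.67-fold higher in luteal libraries (log2 fold change 0.74, SE 0.27, edgeR adjusted p = 0.426, unadjusted p = 0.0174). Of the 9 genes TSHR had the smallest unadjusted p, and its log2 fold change stayed between 0.58 and 0.95 in all 20 alternatives, with edgeR, DESeq2 or limma-voom adjusted p from 0.0606 to 0.994. The lowest of these came without follicular 5.

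**Figure D3:**
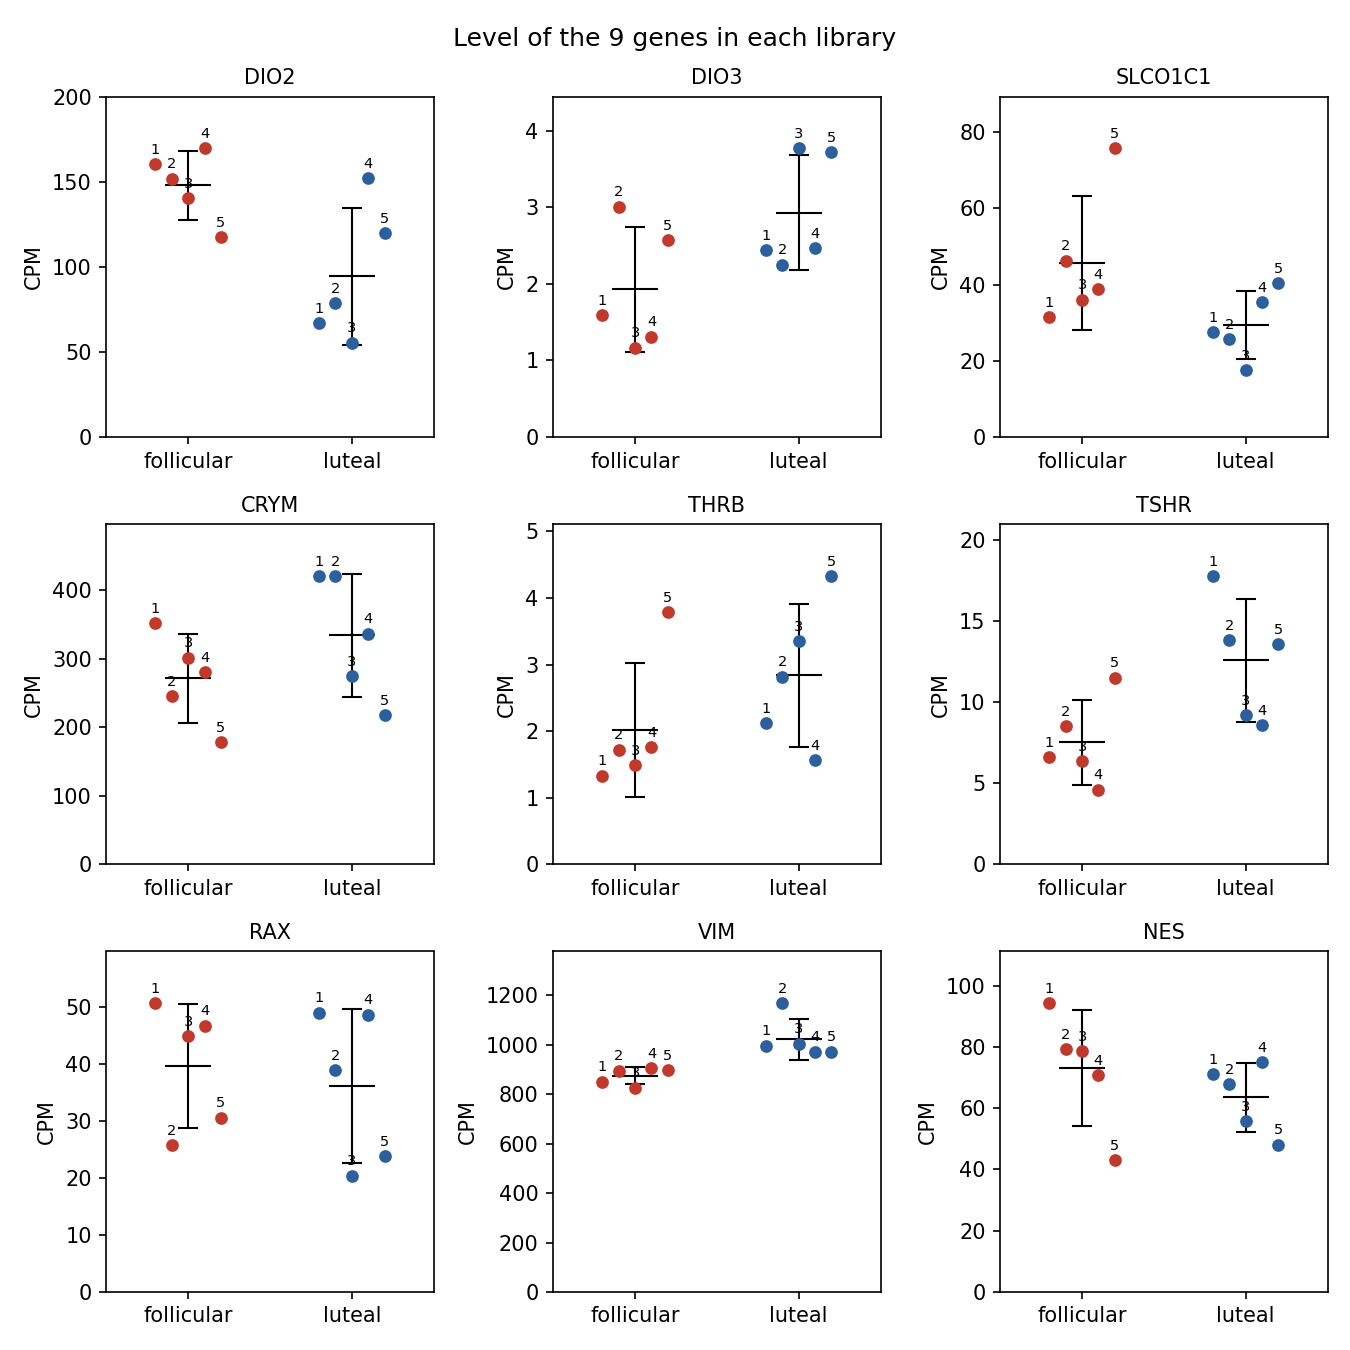
CPM of each gene (vertical axes start at 0) in the 5 follicular and 5 luteal libraries, numbered by replicate, with mean and SD per phase. VIM is the single gene without overlap, at up to 906 CPM in follicular and at least 972 CPM in luteal libraries. Luteal 4 sits with the follicular libraries for DIO2, and luteal 1, 2 and 3 are the lowest for both DIO2 and SLCO1C1.

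The ligand of TSHR is made of 2 chains encoded by TSHB and CGA. TSHB was at 265 to 413 CPM in follicular and at 648, 223, 82.5, 593 and 92.4 CPM in luteal libraries. Luteal 1 and 4 exceeded every follicular library and luteal 2, 3 and 5 lay below all of them, so the means of 349 ± 58.0 and 328 ± 273 CPM were close (SD, n = 5 each; log2 fold change -0.09, SE 0.51, edgeR adjusted p = 0.935). CGA, the alpha chain shared with the gonadotropins, was at 1788 to 2383 CPM in follicular and at 1670, 1053, 1243, 1737 and 1014 CPM in luteal libraries, without overlap. It averaged 2033 ± 245 and 1343 ± 341 CPM (log2 fold change -0.60, SE 0.17, edgeR adjusted p = 0.426). FSHB, the beta chain gene of a gonadotropin, ran from 10.6 to 107 CPM over the libraries. The cells that the TSHB and CGA reads came from, in the pars tuberalis or elsewhere in the pituitary, were not identified.

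EYA3, a transcriptional coactivator that raises TSHB in the pars tuberalis under long days, varied widely. It was at 101 CPM in luteal 1 and at 2905 CPM in luteal 4, and follicular libraries ran from 273 to 1086 CPM. Luteal 4, highest for EYA3, was also the luteal library with the highest DIO2 and with the highest level of the melatonin receptor gene MTNR1A, 49.9 CPM against at most 39.5 CPM in any other library. Luteal 1, by contrast, had the highest TSHB and TSHR and the second lowest DIO2.

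Across the 10 libraries, the 9 relations of TSHB, CGA and EYA3 with DIO2, DIO3 and TSHR gave 0 adjusted p under 0.05. TSHB and DIO2 had Pearson r = 0.35 (permutation p = 0.318, adjusted p = 0.477) and Spearman rho = 0.18 (permutation p = 0.631), and r was -0.16 without luteal 3 and 5. EYA3 and DIO2 had r = 0.62 (permutation p = 0.0572, adjusted p = 0.172) and rho = 0.60 (permutation p = 0.0733). For this pair r was 0.48 without luteal 1 and 4 and 0.75 after the mean of each phase was taken out. CGA and TSHR had r = -0.63 and rho = -0.78 (permutation p = 0.0510 and 0.0104, adjusted p = 0.172 and 0.0938). CGA and DIO3 had r = -0.67 (permutation p = 0.0333, adjusted p = 0.172). With phase means out, r was -0.24 for CGA and TSHR and -0.40 for CGA and DIO3. TSHB and TSHR had r = -0.08 (permutation p = 0.814, adjusted p = 0.814) and rho = -0.01 (permutation p = 1.0), and r was 0.25 without luteal 3 and 5. THRA, TSHB, EYA3, MTNR1A and these relations were chosen after their values were seen.

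Of 9 genes of the thyroid axis, 8 were tested, TSHR among them, and 3 averaged higher and 5 lower (median log2 fold change -0.07). TRH, the gene of thyrotropin-releasing hormone, did not overlap between phases, with 15.3 to 22.8 CPM in follicular and 7.69 to 12.7 CPM in the luteal phase (log2 fold change -0.80, SE 0.18, edgeR adjusted p = 0.426). The paraventricular gene SIM1 was nearly absent from these blocks, and the cells that the TRH reads came from were not identified. DESeq2 called TRH (adjusted p = 0.0145). The receptor gene TRHR was not tested, with at most 0.212 CPM.

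**Figure D4:**
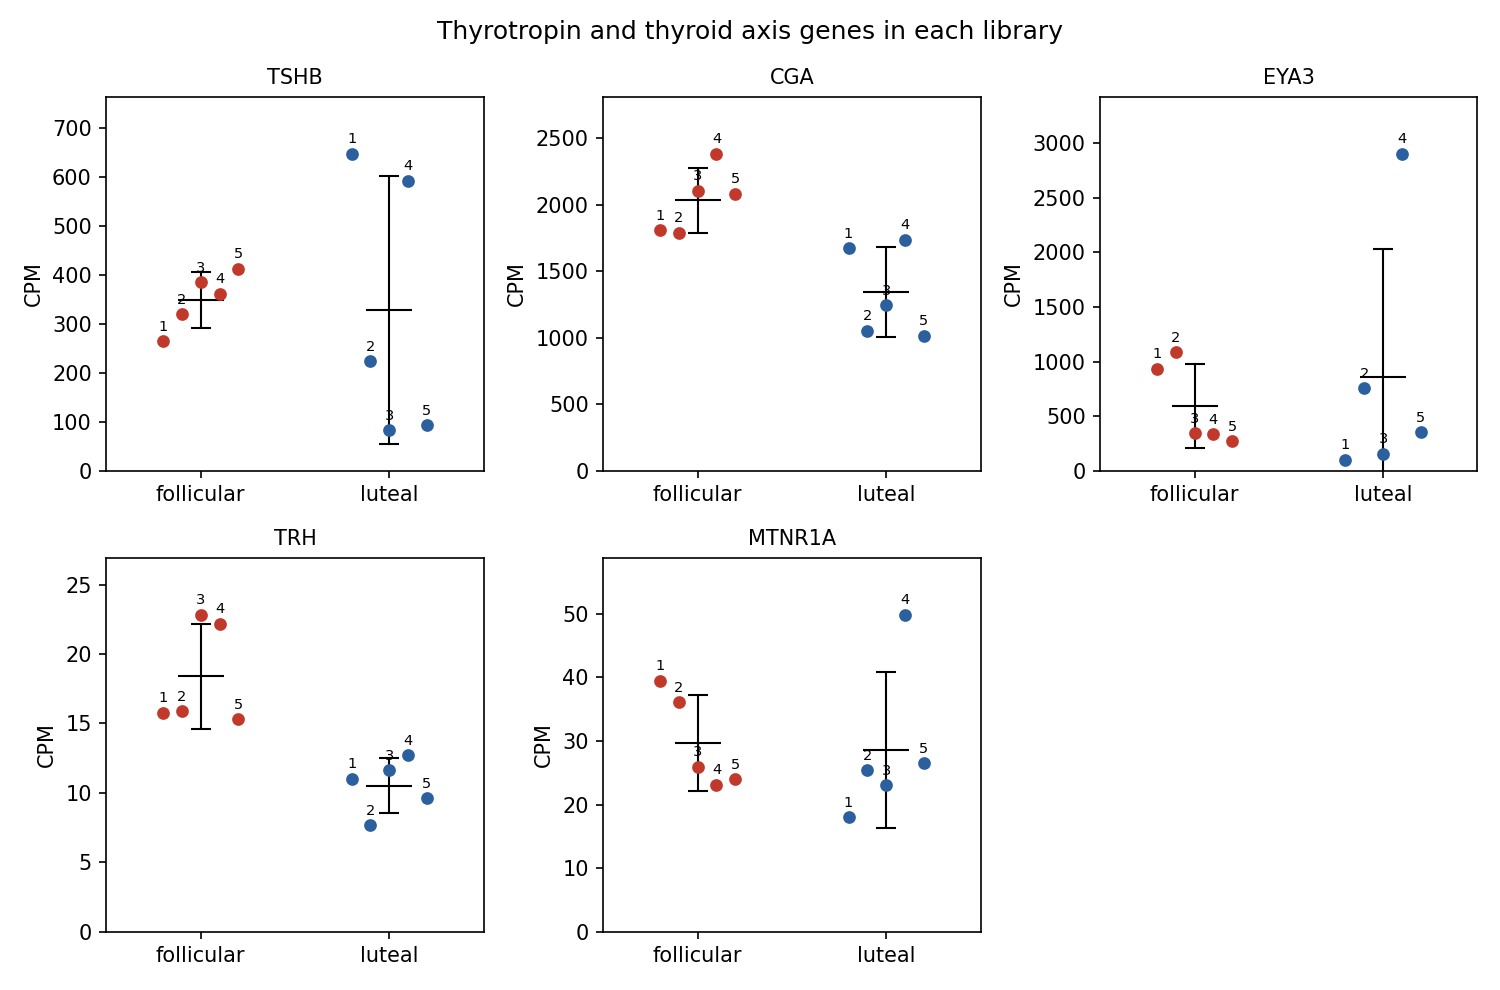
CPM of 5 genes of the thyroid axis (vertical axes start at 0) in each library, numbered by replicate, with mean and SD per phase. CGA and TRH do not overlap between phases, whereas TSHB and EYA3 spread widely within the luteal phase, from 82.5 to 648 CPM and from 101 to 2905 CPM.

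RAX encodes a homeobox factor whose expression in the adult hypothalamus is nearly restricted to tanycytes. It was at 50.6, 25.7, 44.9, 46.7 and 30.6 CPM in follicular and at 49.0, 38.9, 20.4, 48.7 and 23.8 CPM in luteal libraries. Both phases held libraries near 50 CPM and libraries near 20 to 30 CPM. The means were 39.7 ± 10.9 CPM and 36.1 ± 13.5 CPM (SD, n = 5 each; log2 fold change -0.13, 95% interval -0.72 to 0.46, edgeR adjusted p = 0.805). The log2 fold change of RAX was 0.021 without luteal 3 and 0.26 with the first principal component in the model.

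VIM encodes vimentin, an intermediate filament protein of tanycytes that is also abundant in endothelium and fibroblasts. It was at 851, 896, 826, 906 and 897 CPM in follicular and at 997, 1168, 1005, 972.3 and 972.1 CPM in luteal libraries. Every luteal library lay above every follicular library, and luteal 2 stood apart as the highest. The means were 875 ± 34.6 CPM and 1023 ± 82.3 CPM (SD, n = 5 per phase), 1.17-fold higher in luteal libraries (log2 fold change 0.23, SE 0.09, edgeR adjusted p = 0.426, unadjusted p = 0.0296). VIM had the lowest spread of the 9 genes in either phase, with coefficients of variation of 3.96% and 8.05%.

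NES encodes nestin, an intermediate filament protein of neural stem cells and tanycytes that capillaries also express. It was at 94.2, 79.3, 78.6, 70.8 and 42.9 CPM in follicular and at 71.2, 67.8, 55.7, 75.03 and 48.1 CPM in luteal libraries. All luteal libraries lay below the follicular median and inside the follicular range. The means were 73.2 ± 18.9 CPM and 63.6 ± 11.3 CPM (SD, n = 5 each; log2 fold change -0.20, 95% interval -0.62 to 0.22, edgeR adjusted p = 0.580). The log2 fold change of NES was -0.09 without follicular 1, -0.11 without luteal 5, -0.34 without follicular 5 and 0.15 with the first principal component in the model.

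Of 18 other genes known from tanycytes, 17 were tested, and 13 averaged higher and 4 lower in luteal libraries (median log2 fold change 0.16, against 0.01 over all genes), with 0 called. FRZB, a secreted antagonist of Wnt signalling, averaged 51.4 ± 12.2 CPM in follicular against 66.2 ± 8.75 CPM in luteal ones (log2 fold change 0.36, edgeR adjusted p = 0.426; 0.20 with the first principal component or without follicular 1 and 3). TGFB2, a growth factor, averaged 8.28 and 10.8 CPM, and SOX2, a transcription factor of neural progenitors, 40.0 and 59.3 CPM. The orphan receptor gene GPR50 had at most 4 reads in a library. Summed over the list, levels were 1124 to 1525 CPM in follicular and 1338 to 1500.4 CPM in luteal libraries.

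Markers of the other cells that express these genes were read beside them. Of 10 endothelial markers 7 averaged higher and 3 lower, with a summed level of 328 to 402 CPM in follicular and 353 to 413 CPM in luteal libraries. CDH5, TEK and KDR were higher at an unadjusted edgeR p under 0.05, as were 4.27% of all genes tested. Of 9 mural cell and fibroblast markers 6 averaged higher (768 to 913 and 789 to 953 CPM summed). Of 10 astrocyte markers 4 averaged higher (5137 to 6662 and 3885 to 6246 CPM summed), and of 8 tested ependymal markers 4 (199.9 to 413 and 210.0 to 326 CPM summed). All 8 tested choroid plexus markers averaged higher (26.04 to 58.7 and 38.5 to 122 CPM summed), with CLDN2, OTX2 and KCNE2 below the filter. Of the mural, astrocyte, ependymal and choroid plexus markers only SLC4A5 of choroid plexus had an unadjusted edgeR p under 0.05 (0.00255). It averaged 1.20 and 2.61 CPM without overlap between phases, which held for 1.12% of all genes tested. None of these markers was called by edgeR. Their part in the levels of VIM, NES, SLCO1C1 and the other genes was not tested.

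Among the 36 pairs of the 9 genes, 16 had a positive Pearson r across the 10 libraries and 1 pair passed after adjustment. THRB and NES moved in opposite directions with r = -0.93 (permutation p = 3e-05, adjusted p = 0.00108) and rho = -0.94 (permutation p = 0.00026, adjusted p = 0.00936), and r was -0.90 without follicular 5 and luteal 5. After the mean of each phase was taken out, r was -0.95 for this pair, and 3 other pairs passed as well. These were CRYM and NES (r = 0.87, permutation adjusted p = 0.0151), CRYM and THRB (r = -0.80, permutation adjusted p = 0.0464) and DIO3 and RAX (r = -0.85, permutation adjusted p = 0.0464). Within phases, libraries high in CRYM were thus high in NES and low in THRB, and libraries high in DIO3 were low in RAX. The centred values were permuted over all 10 libraries and not within phases, which can make these p-values too small. With phase means kept in, DIO2 and TSHR had r = -0.66 (permutation p = 0.0383, adjusted p = 0.147) and rho = -0.78 (permutation p = 0.0110, adjusted p = 0.176), and r was -0.81 without luteal 1 and 3. With phase means taken out, r for DIO2 and TSHR was -0.39 (permutation adjusted p = 0.492).

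Levels were also set against the ribosomal protein share of the libraries. How many of all genes tested would pass in the same way was not computed. The count among the 9 therefore has no background beside it and is not a trait shown to be particular to them. Of 9 relations 4 passed after adjustment: THRB (r = -0.90, permutation adjusted p = 0.00576; rho = -0.88), DIO3 (r = -0.87, permutation adjusted p = 0.00576; rho = -0.85), NES (r = 0.83, permutation adjusted p = 0.00852; rho = 0.76) and RAX (r = 0.79, permutation adjusted p = 0.0203; rho = 0.75). Without follicular 1 and 3, the libraries farthest out, r was -0.86 for THRB, -0.77 for DIO3, 0.78 for NES and 0.79 for RAX. For TSHR r was -0.67 (permutation p = 0.0368, adjusted p = 0.0662; rho = -0.61), and -0.55 without the same libraries. For CRYM r was 0.51 (permutation adjusted p = 0.158; rho = 0.62), for DIO2 0.51 (permutation adjusted p = 0.158; rho = 0.56), for SLCO1C1 -0.16 (permutation adjusted p = 0.674; rho = -0.27) and for VIM -0.50 (permutation adjusted p = 0.158; rho = -0.39). The share averaged 2.29 ± 0.49% in follicular and 1.97 ± 0.26% in luteal libraries (SD, n = 5 each). All 20 ribosomal protein genes averaged lower in luteal libraries, with 0 called by edgeR. The share also differs among libraries within both phases. The first principal component, used as a covariate above, held 51.0% of the variance among libraries and tended to be lower where the share was larger. It was -61.6 in follicular 3 (share 2.70%) and 58.2 in luteal 5 (1.67%). Fits with that component therefore also take up much of this axis, and gave log2 fold changes of 0.21 for DIO3, -0.051 for THRB, 0.15 for NES and 0.26 for RAX. The share itself was not put in a model, and its part in the relations between genes and in their phase differences was not tested.

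**Figure D5:**
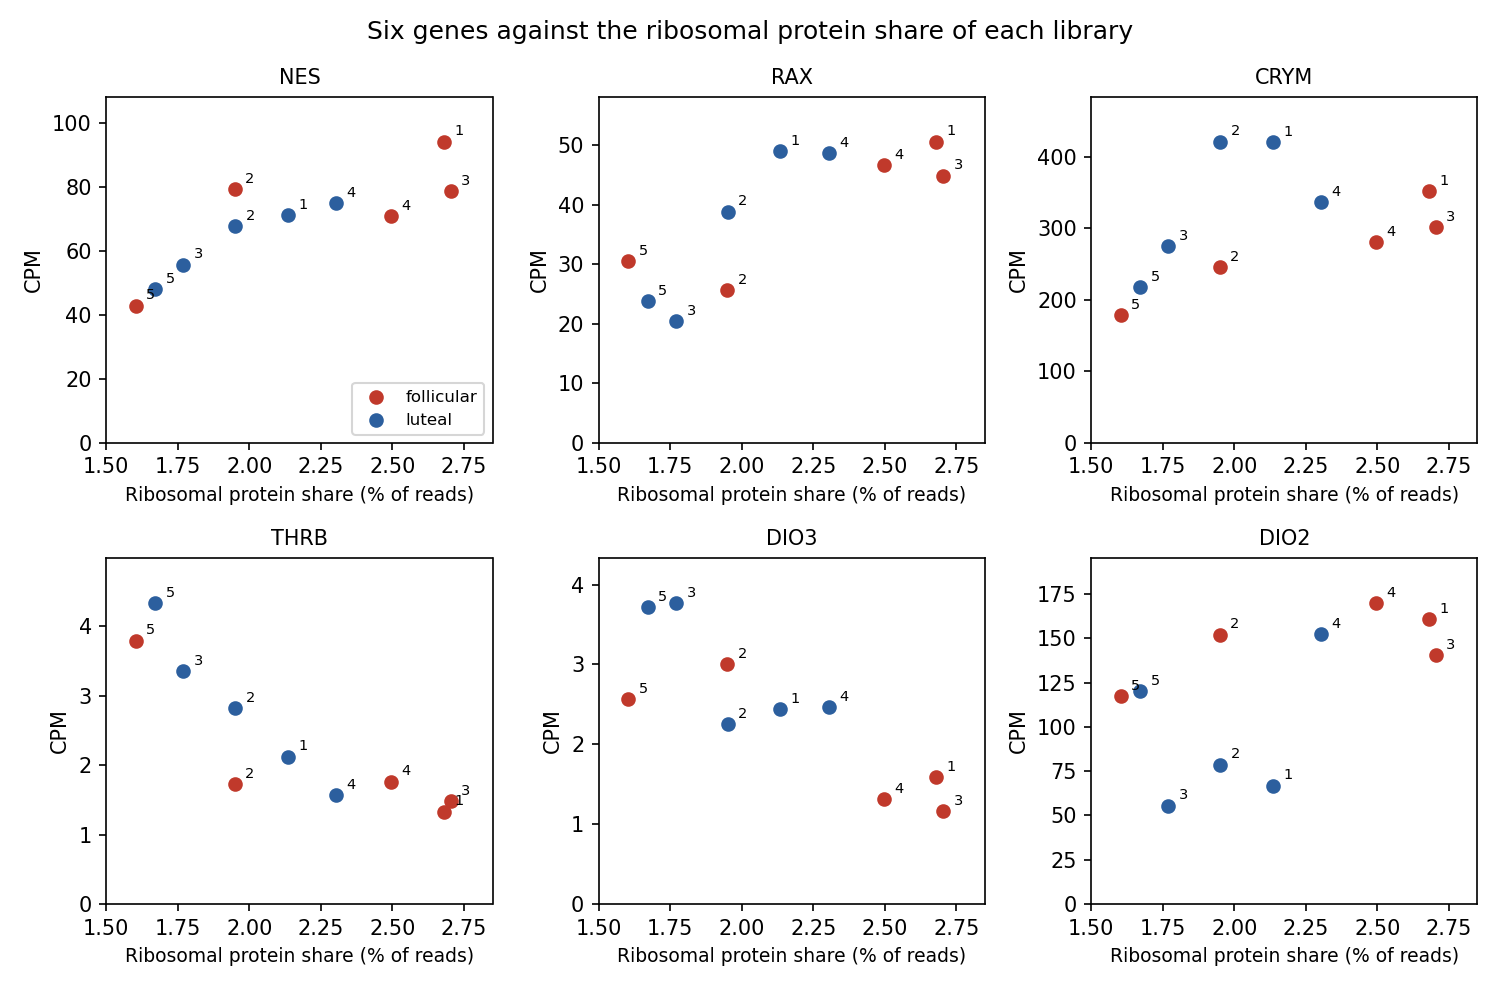
CPM of 6 genes (vertical axes start at 0) against the share of reads on 20 ribosomal protein genes (horizontal axis, percent), 1 point per library, numbered by replicate and coloured by phase. NES and RAX are higher and THRB and DIO3 lower in libraries with a larger share, whereas luteal 1, 2 and 3 have low DIO2 at shares of 1.77% to 2.13%.

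Genes downstream of the receptors showed no common direction, and genes of receptor partners were read beside them. Of 12 genes that respond to triiodothyronine in brain or other tissues, 6 averaged higher and 6 lower (median log2 fold change 0.00) and 0 were called. NRGN, a postsynaptic calmodulin-binding protein, averaged 216 ± 65.3 CPM in follicular against 122 ± 61.8 CPM in luteal ones (log2 fold change -0.83, SE 0.32, edgeR adjusted p = 0.426). RASD2, a small GTPase of striatal neurons, averaged 50.1 and 34.8 CPM, and STARD4, a sterol transfer protein, 1.16 and 2.09 CPM. Of 12 receptor partners and coregulators 8 averaged higher and 4 lower (median 0.10). RXRG, a retinoid X receptor that pairs with thyroid hormone receptors, averaged 73.1 ± 13.8 and 56.5 ± 7.08 CPM (log2 fold change -0.37, SE 0.14, edgeR adjusted p = 0.426). RXRB averaged 127 and 106 CPM, and the coactivator gene NCOA1 50.0 and 60.6 CPM. With the first principal component in the model the log2 fold change of NRGN was -0.30 and that of RXRG -0.13.

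Deiodinases are selenoproteins, and DIO2 protein is also set by ubiquitination. Of 12 genes of selenoprotein synthesis, deiodinase turnover and related functions 7 averaged higher and 5 lower (median log2 fold change 0.14), with 0 called. EEFSEC, the elongation factor for selenocysteine, averaged 136 ± 30.5 and 103 ± 17.9 CPM (log2 fold change -0.40, SE 0.17, edgeR adjusted p = 0.426). GPX4, a selenoprotein that reduces lipid peroxides, averaged 409 ± 110 and 291 ± 73.9 CPM, and GLUL, glutamine synthetase of glia, 681 ± 99.96 and 542 ± 70.4 CPM. With the first principal component in the model the log2 fold change of EEFSEC was -0.086 and that of GPX4 -0.055, against -0.49 for GPX4 without it. Without follicular 1 and 3 they were -0.23 and -0.27, and the median of the list was -0.03.

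Of 15 genes of cyclic AMP signalling, the route from TSHR to DIO2, 12 averaged higher and 3 lower in luteal libraries (median log2 fold change 0.14), with 0 called, and the median was 0.03 without follicular 1 and 3. PRKAR1A, a regulatory subunit of protein kinase A, averaged 848 ± 93.0 and 699 ± 73.7 CPM (log2 fold change -0.28, SE 0.11, edgeR adjusted p = 0.426; -0.13 with the first principal component). PRKACA, a catalytic subunit, averaged 41.7 ± 19.2 and 62.2 ± 10.3 CPM, and GNAS, the stimulatory G protein, 3274 and 3761 CPM.

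Of 13 retinoid and seasonal genes 12 were tested, with 7 higher and 5 lower (median 0.05) and 0 called. ALDH1A2, which makes retinoic acid, averaged 126 ± 13.3 and 154 ± 27.3 CPM, and RARB, a retinoic acid receptor, 15.6 ± 1.33 and 19.1 ± 1.88 CPM (log2 fold changes 0.30 and 0.29, edgeR adjusted p = 0.426 for both). With the first principal component in the model that of ALDH1A2 was 0.16.

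The genes with the pattern closest to each of the 9 were found by the root mean square difference of log2 CPM over the 10 libraries, each gene centred on its own mean. For DIO2 they were FOSL1 (0.23), ARHGEF16 (0.25), MANF (0.25), PTPRH (0.27) and CALR (0.28), where the median over all named genes was 0.61. For DIO3 they were PTPRC (0.16) and STON1 (0.17), for SLCO1C1 CPLX3 (0.22) and SLC11A1 (0.24), and for TSHR IQCB1 (0.24) and PFKFB2 (0.25). For CRYM they were FGF18 and CD248 (0.13 each), for THRB SLC25A32 (0.10) and MAP3K21 (0.12), and for RAX SLC1A7 (0.17) and PAXX (0.18). POLG and ZFTA were closest to VIM (0.06 each), and EHBP1L1 (0.06) and KCNJ14 (0.09) to NES. The log2 fold changes of the 5 genes closest to DIO2 were -0.81 for FOSL1, -0.66 for ARHGEF16, -0.66 for MANF, -0.40 for PTPRH and -0.64 for CALR. A lower luteal mean follows from how they were picked, since closeness to DIO2 was measured over the same 10 libraries. None of the 5 was called by edgeR (adjusted p from 0.426 to 0.430).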

How the data were processed

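The authors deposited raw counts of reads per gene in a single table of 10 libraries (total reads 20644992 to 43193449). Libraries were made with a stranded mRNA kit, per the labels' protocols. The submitters' processing notes name featureCounts 2.0.0, TopHat2 2.1.1, SAMtools 1.9 and Bowtie2 2.3.5.1. The genome build and strand setting are not given in the sources used here, so a gene with an antisense neighbour has an uncertain value.

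Counts were tested in R 4.3.3 with edgeR 4.0.16 (quasi-likelihood F-test, two-sided, phase as the only term) after filterByExpr (minimum count 10, minimum total 15) and TMM scaling. This left 18276 genes, over which p-values were adjusted by Benjamini-Hochberg with a threshold of 0.05. Fold changes are luteal over follicular. DESeq2 1.42.0 and voom of limma 3.58.1 were alternatives, as were other scaling, other filters, the replicate number, the first principal component and left-out libraries. Relations across libraries used 100000 resamples and library measures all 252 assignments. No pair of libraries agreed within sampling noise (smallest chi-square per degree of freedom 12.8). Spread between libraries holds differences between pairs of different ewes together with those of dissection and library preparation, and these cannot be told apart. Of 226 listed genes 225 were matched, with 492 symbols of the table taken from assembly ARS-UI_Ramb_v3.0.

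The 9 genes and the lists were chosen with earlier results of these data known, and some listed genes are not reported here. All 9 were named, with the 3 genes of smallest edgeR p from each pathway list, defining markers near 0, and the closest 5 genes for DIO2 and 2 for each other gene.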

Additional observations from a re-analysis of the deposited data

Results flagged for a closer look

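In each phase the most extreme library was marked when its distance from the next value, as a share of the whole range, passed Dixon's 95% limit of 0.71 for 5 samples. This was so in 7 of 132 groups of values checked, and chance alone picks out about 1 in 20, or 6.6. Follicular 5 accounted for 4 of the 7. It was high for THRB (3.79 CPM against 1.33 to 1.76 CPM in the other follicular libraries) and for the coactivator gene NCOA1 (66.8 against 44.1 to 49.2 CPM). It was low for the neuronal gene RBFOX3 (34.8 against 49.4 to 51.4 CPM) and for CNP, a myelin enzyme (95.6 against 168 to 187 CPM). Luteal 2 was high for VIM (1168 against 972 to 1005 CPM), luteal 4 for RASD2 (64.1 against 23.7 to 32.5 CPM) and luteal 1 for STMN2, a neuronal growth protein (518 against 343 to 383 CPM).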

How the results depend on the processing

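Over 20 alternatives 0 of the 9 genes were called in any fit. The count over all genes was 35 with DESeq2 and ran from 0 to 1 with single libraries left out, 1 without luteal 4. DIO2, DIO3, SLCO1C1, CRYM, TSHR and VIM kept their direction in all 20, over ranges of -0.88 to -0.50, 0.21 to 0.80, -0.87 to -0.38, 0.18 to 0.67, 0.58 to 0.95 and 0.17 to 0.24 on the log2 scale. RAX turned to 0.078 without follicular 1 and 3, to 0.26 with the first principal component and to 0.021 without luteal 3 (-0.27 to 0.021 with single libraries left out). With that component THRB turned to -0.051 and NES to 0.15. The DIO2 to DIO3 balance ran from -1.63 to -1.12 with single libraries left out. It was not computed with the first principal component or without follicular 1 and 3 together. In those fits the log2 fold changes were -0.52 and -0.62 for DIO2 and 0.21 and 0.35 for DIO3, against -0.65 and 0.58 in the main fit. The number of gene pairs passing went from 1 to 4 with phase means taken out, by a permutation across phases that can make p too small. Medians of lists, read after seeing the data, turned for the triiodothyronine-responsive genes (-0.0026 with RLE scaling, -0.13 without follicular 1 and 3, -0.20 with the component), the selenoprotein and turnover genes (-0.035 without follicular 1 and 3, -0.071 with the component), the receptor partners (-0.023 with the component) and the thyroid axis genes (0.036 with the component). With the component the median went from 0.16 to 0.06 for the other tanycyte genes, from 0.14 to 0.04 for the cyclic AMP genes and from 0.05 to 0.18 for the retinoid and seasonal genes. The causes were not tested. The labels do not say whether replicate numbers pair the libraries. Correlations of same-numbered deviations ran from -0.33 to 0.63. Follicular 1, 4 and 5 correlated best with their own number in luteal, and follicular 2 and 3 did not. With the replicate block 0 genes were called, and the log2 fold changes were -0.74 for DIO2 and 0.75 for TSHR. The smallest edgeR adjusted p was then 0.052 over all genes and 0.143 among the 9, against 0.426 for both without the block. DIO3 and THRB, with as few as 22 and 26 reads in a library, are limited most by depth.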
